A study of Mus musculus with 2 samples.

Results

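The mir-15/mir-16 family, with its relatives mir-195 and mir-497, was described here across the small RNA of the aged mouse hippocampus. It was taken as 7 miRNA genes picked by name from the annotation: Mir15a, Mir16-1, Mir15b, Mir16-2, Mir195a, Mir497 and Mir497b. They are 7 of the 2202 annotated miRNA genes in the count tables. Of these, 6 form 3 clusters of paired hairpins, and Mir497b lies on the other strand at Mir497. The hippocampal tissue was from B6CASTF1/J males, an F1 cross of a B6 and a CAST line, aged 18 to 20 months. There was 1 group of 2 libraries, replicate 1 and replicate 2, with no treatment, other genotype or other age. The labels number the libraries as biological replicates and give each its own tissue entry. They also give 1 shared donor entry, so the spread between the libraries may be technical.

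MicroRNAs are short RNAs cut from hairpins. Each pairs with messenger RNAs mainly through its seed, the bases 2 to 8 from its 5′ end, and lowers their translation or stability. Members of the mir-15/16 family are best known for restraining the cell cycle through cyclins and for lowering the survival factor Bcl2. The cluster of Mir15a and Mir16-1 is known for its loss in human chronic lymphocytic leukaemia, and the family is broadly expressed, postmitotic tissue included.

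The mature sequences are shown first because they decide which members can be told apart in a read count. RefSeq (GRCm38.p6) gave a mature entry for 7 of the 7 members. The 5p products of 6 members make 5 distinct sequences. Below, 5′ to 3′, the seed is in capitals.
miR-15a-5p: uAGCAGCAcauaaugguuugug
miR-15b-5p: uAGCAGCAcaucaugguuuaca
miR-16-5p: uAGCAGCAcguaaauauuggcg
miR-195a-5p: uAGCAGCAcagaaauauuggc
miR-497a-5p: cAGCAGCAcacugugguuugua

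All 5 carry the seed AGCAGCA, and their identity runs on to base 9 (AGCAGCAC). Of 1738 mature entries in the RefSeq table, 11 have this seed, from 11 genes, and 6 of those genes are members. Beyond the shared core the sequences diverge. Compared position by position without gaps, miR-195a-5p differed from miR-16-5p at 2 of 21 positions and miR-15a-5p from miR-15b-5p at 4 of 22. The most distant pair, miR-16-5p and miR-497a-5p, differed at 11 of 22. Mir16-1 and Mir16-2 give the same miR-16-5p, and of their annotated mature products only the 3p ones differ. Those are printed here, again with bases 2 to 8 in capitals, to show the mature product unique to each copy.
miR-16-1-3p: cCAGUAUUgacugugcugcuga
miR-16-2-3p: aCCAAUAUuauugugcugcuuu

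The run that the 2 Mir16 hairpins share is 23 bases long and holds the whole of miR-16-5p. A read of the exact mature sequence therefore maps to both loci, and reads mapped to several places were 51.52% of all reads in replicate 1 and 46.66% in replicate 2, none of them assigned to a gene. The counts of Mir16-1 and Mir16-2 are thus what remained after such reads were set aside, and they are not levels of miR-16-5p. The longest run that any other member shares with another annotated hairpin is 16 bases (Mir195a with Mir195b), 13 bases (Mir15a) or 12 bases (Mir15b, Mir497 and Mir497b). None of these runs holds a whole mature sequence. Matches elsewhere in the genome were not searched.

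The genes sit in 3 settings in mm10. Mir15a (ENSMUSG00000093007.1, chromosome 14, 61632027 to 61632110, minus strand) lies 54 bases upstream of Mir16-1 (ENSMUSG00000092995.1, 61631880 to 61631972). Both are inside the long non-coding gene Dleu2 on its strand, Mir15a in an intron, while Mir16-1 overlaps an exon of at least 1 annotated Dleu2 transcript. Mir15b (ENSMUSG00000065580.2, chromosome 3, 69009772 to 69009835, plus strand) lies 66 bases upstream of Mir16-2 (ENSMUSG00000065606.1, 69009902 to 69009996), both in an intron of Smc4, which encodes a condensin subunit. Mir497 (ENSMUSG00000105220.1, chromosome 11, 70234717 to 70234800, plus strand) lies 241 bases upstream of Mir195a (ENSMUSG00000065411.2, 70235042 to 70235135). No annotated host gene contains that pair, and the nearest other gene, 0610010K14Rik, lies 71 bases from Mir195a on the minus strand. Mir497b (ENSMUSG00000070109.2, 70234692 to 70234816, minus strand) covers Mir497 completely.

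The 2 libraries held 3758318 and 5598792 reads counted on the strand of a miRNA gene (sense reads), which set the precision of each level. Counts per 1000000 such reads are CPM. The tissue label was checked on a list of microRNAs known from neurons, of which 8 of 12 were detected, at 51709 ± 1076 CPM in sum (SD, n = 2 here and below). Several genes of that list are copies that give 1 product, so this sum leaves out reads mapped to several places. Of the listed red cell microRNAs, 2 were found by name and 2 detected, at 52.4 and 77.0 CPM in sum. The other names on that list, Mir486a and Mir486b, matched no annotated gene. A gene annotated as Mir486 was detected but is not in the sum, which covers only part of the list.

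Of the 7 members, 6 were detected, meaning at least 10 counts in both libraries, while 17.4% of all 2202 miRNA genes reached that limit. Together the members came to 2779 CPM in the first replicate and 4903 CPM in the second (3841 ± 1502 CPM). That was 0.278% of counted reads in replicate 1 (95% Wilson interval 0.273 to 0.283%) and 0.490% in replicate 2 (0.485 to 0.496%). Intervals cover counting error only. The pair of Mir497 and Mir195a gave 68.0% and 64.8% of the family's counts in replicates 1 and 2, the pair in Dleu2 23.1% and 31.5%, and the pair in Smc4 8.83% and 3.72%. By these counts, the order of the 3 pairs was the same in both libraries. Exact reads of the mature product shared by the Mir16 copies map to several places and are in none of these values. The pairs in Dleu2 and Smc4 each hold such a copy. The family sum, the shares and the order therefore describe counted reads and do not rank the pairs by mature product.

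**Figure D1:**
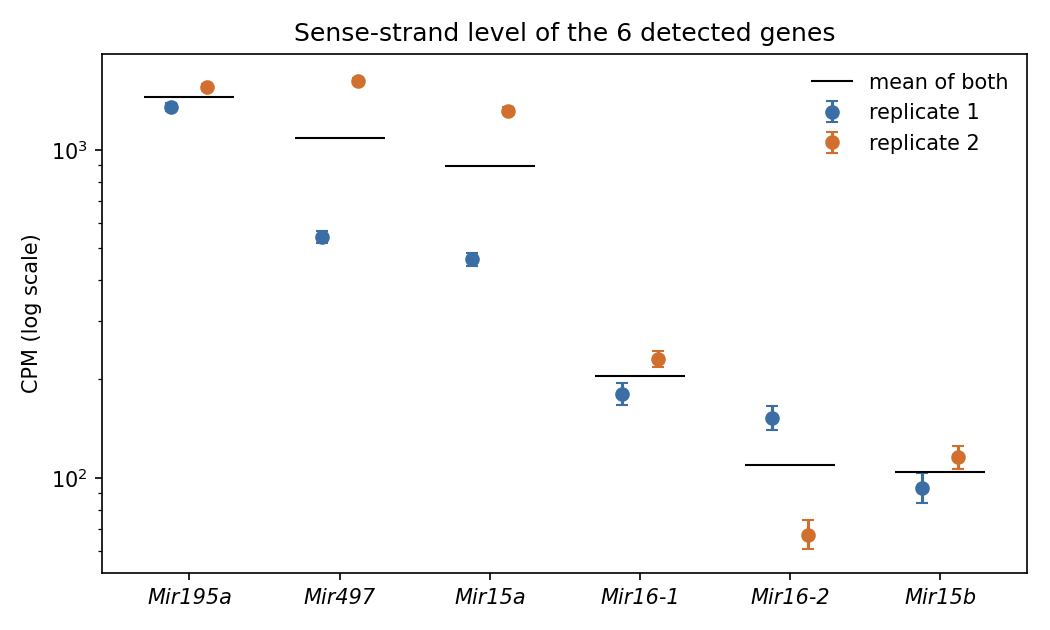
Level of each detected member in CPM on a log axis, with 95% Poisson intervals (counting error) per library and a bar at the mean of both. Mir195a, Mir497 and Mir15a lie between 463 and 1625 CPM and the other members between 67.2 and 229.9 CPM. Mir497b, with 1 and 0 counts, is not drawn.

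Mir195a, whose product is the nearest relative of miR-16-5p within the family, had the highest mean. Its level was 1348 CPM in replicate 1 and 1551 in replicate 2, from 5066 and 8682 counts (1449 ± 143 CPM), and ranked 74th of all miRNA genes in each library. Mir497, its upstream neighbour, had 542 and 1625 CPM, from 2037 and 9099 counts (1084 ± 766 CPM). These neighbours in the order did not keep their places: Mir195a was above Mir497 in replicate 1 and below it in replicate 2.

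Mir15a was the third by mean, with 463 CPM in replicate 1 and 1315 in replicate 2, from 1740 and 7361 counts (889 ± 602 CPM). It stood below Mir497 in each library. Its partner Mir16-1 had 180.1 and 229.9 CPM, from 677 and 1287 counts (205.0 ± 35.2 CPM), and was the next lower member in both libraries.

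By counted reads, the genes of the Smc4 pair were the lowest of the detected members. Mir16-2 had 152 CPM in replicate 1 and 67.2 in replicate 2, from 572 and 376 counts (109.7 ± 60.1 CPM). Mir15b had 93.1 and 115 CPM, from 350 and 646 counts (104 ± 15.7 CPM). Their order also changed between the libraries, so neither was the higher of the pair beyond the spread. The median of the 384 detected miRNA genes was 101.9 CPM, close to both.

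**Figure D2:**
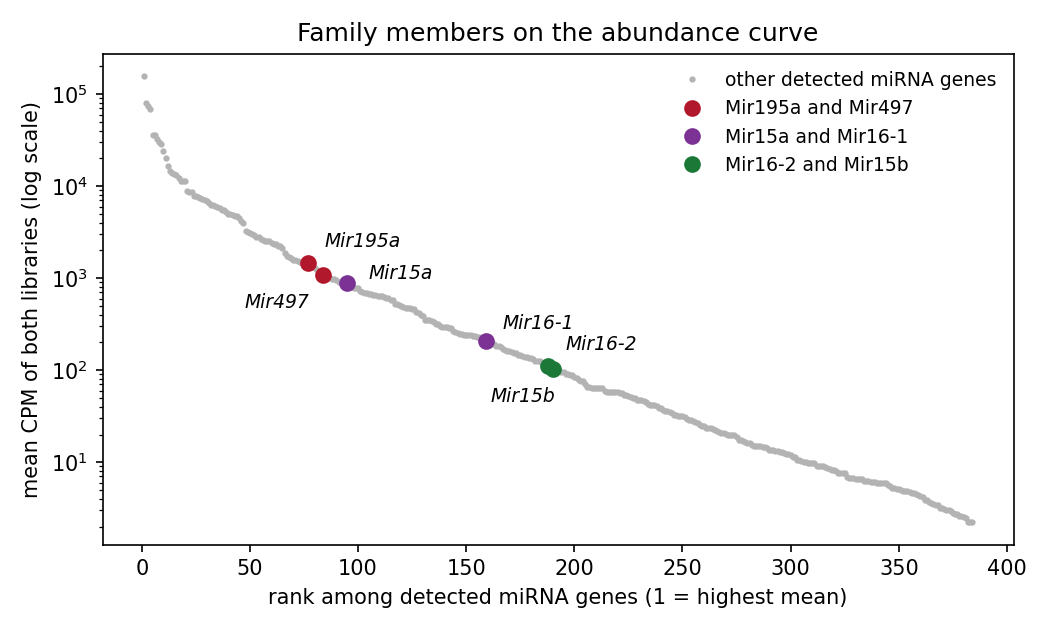
Mean CPM of both libraries (log axis) against rank for the 384 detected miRNA genes, with the 3 gene pairs in colour. Mir195a, Mir497 and Mir15a stand at ranks 77, 84 and 95, Mir16-1 at 159, and Mir16-2 and Mir15b at 188 and 190.

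Neighbouring hairpins of a pair did not give equal counts, and the split differed between the libraries. Mir15a made up 72.0% of the counts of the Dleu2 pair in replicate 1 (Wilson 95% interval 70.2 to 73.7%) and 85.1% in replicate 2 (84.4 to 85.9%). Mir15b made up 38.0% of the Smc4 pair in replicate 1 (34.9 to 41.1%) and 63.2% in replicate 2 (60.2 to 66.1%). Mir497 made up 28.7% of the chromosome 11 pair in replicate 1 (27.6 to 29.7%) and 51.2% in replicate 2 (50.4 to 51.9%). In each of the 3 pairs the upstream hairpin took the larger share in replicate 2, and the intervals of the libraries did not overlap. The share of the Mir16 copy accordingly went from 28.0% to 14.9% in the Dleu2 pair and from 62.0% to 36.8% in the Smc4 pair. These splits compare genes within 1 library, so the scaling between libraries does not enter them. Reads that mapped to several places, as any exact read of miR-16-5p would, fell in the same direction, from 51.52% to 46.66% of all reads. Their part in the shift was not tested.

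**Figure D3:**
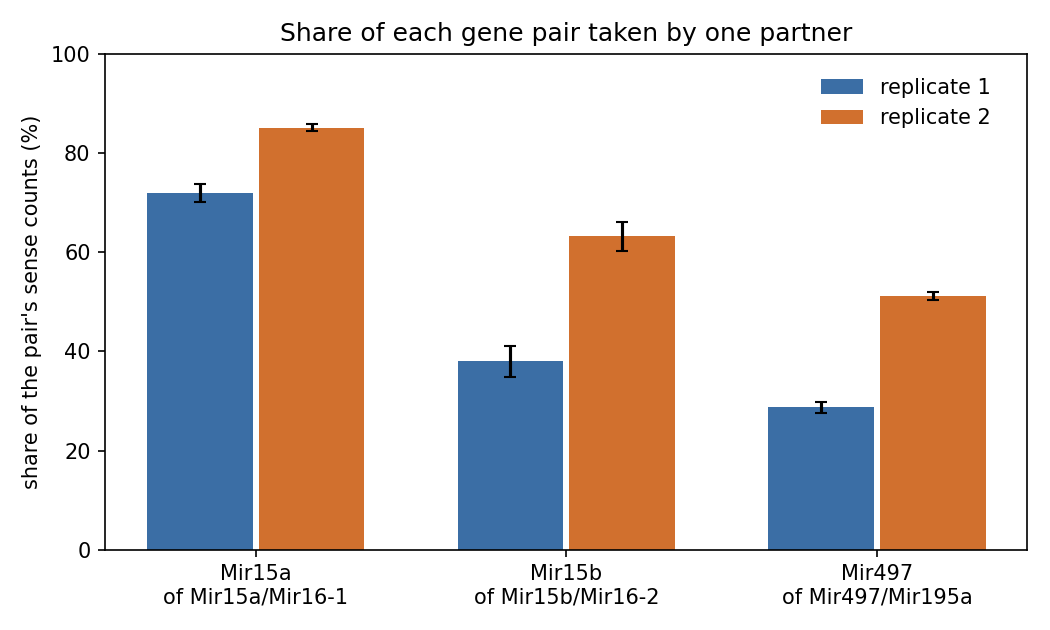
Share of each pair's sense counts (percent) taken by its upstream hairpin in replicate 1 and replicate 2, with 95% Wilson intervals. All 3 shares are higher in replicate 2, by the largest step for Mir15b, from 38.0% to 63.2%.

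Between the libraries, Mir497 and Mir15a were higher in replicate 2, Mir16-2 was higher in replicate 1, and the other detected members lay close together. Folds are on the TMM scale, a scaling that trims genes with extreme ratios, and the counts of a gene in both libraries went into a two-sided exact binomial test, Benjamini-Hochberg adjusted over 384 genes. The test compares 2 libraries and not conditions. It called 4 of the 6 detected members, 2 higher in each replicate, beside 65.1% of all detected genes, so being called was common. A difference that was called and at least 2-fold was found for 3 members and for 14.8% of all detected genes. The members' median absolute log2 ratio was 0.65 and that of all detected genes 0.44.

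Mir497 was 2.41-fold higher in replicate 2 and Mir15a was 2.28-fold higher there (exact binomial test, adjusted p = 9.52e-244 for Mir15a). Mir16-2 was 2.82-fold higher in replicate 1 (exact binomial test, adjusted p = 8.71e-56). By size of the ratio these 3 stood at places 32, 39 and 20 of 384. Mir195a differed by 1.08-fold, higher in replicate 1 (exact binomial test, adjusted p = 1.59e-05). Its direction depended on the scaling, since with total counts it was 1.15-fold higher in replicate 2. Mir15b and Mir16-1 were not called (exact binomial test, adjusted p = 0.97 and 0.69), with log2 ratios of replicate 2 over replicate 1 of -0.01 and 0.03.

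Total-count scaling moved the median log2 ratio of all detected genes from -0.01 to 0.31. On that scale 6 of 6 detected members were called, 5 of them higher in replicate 2, beside 70.6% of all detected genes. Of all genes called, 72.0% were higher in replicate 2 on that scale and 47.6% with TMM. The family sum was 1.76-fold higher in replicate 2 in CPM and 1.42-fold higher on the TMM scale. Counting error is smaller than the spread between these libraries, whose biological coefficient of variation was 34.4% over all detected genes (edgeR common dispersion). Despite its name, that value takes in technical spread as well. In an exact negative binomial test with that spread (edgeR), 0 members were called and 1, Mir16-2, had an unadjusted p under 0.05 (p = 0.0419, adjusted p = 0.946). For Mir497 and Mir15a the unadjusted p was 0.0798 and 0.0998 in that exact test. The differences of these 3 members were larger than counting error. The negative binomial test takes its spread from the differences between the same 2 libraries, and it called few genes of any kind: 2 of 384 were called and 18 had an unadjusted p under 0.05. It does not show that the members' levels were alike. Whole-tissue counts cannot tell more cells of a type from more RNA per cell. The listed endothelial and mural microRNAs, 3 of 3 detected, had 22045 and 16510 CPM in replicates 1 and 2. Each of the 3 was called higher in replicate 1 (exact binomial test, TMM scale), beside 65.1% of all detected genes called. The leukocyte and microglia list, 5 of 5 detected, had 3081 and 2829 CPM. The part of these cell types in the members' differences was not tested.

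**Figure D4:**
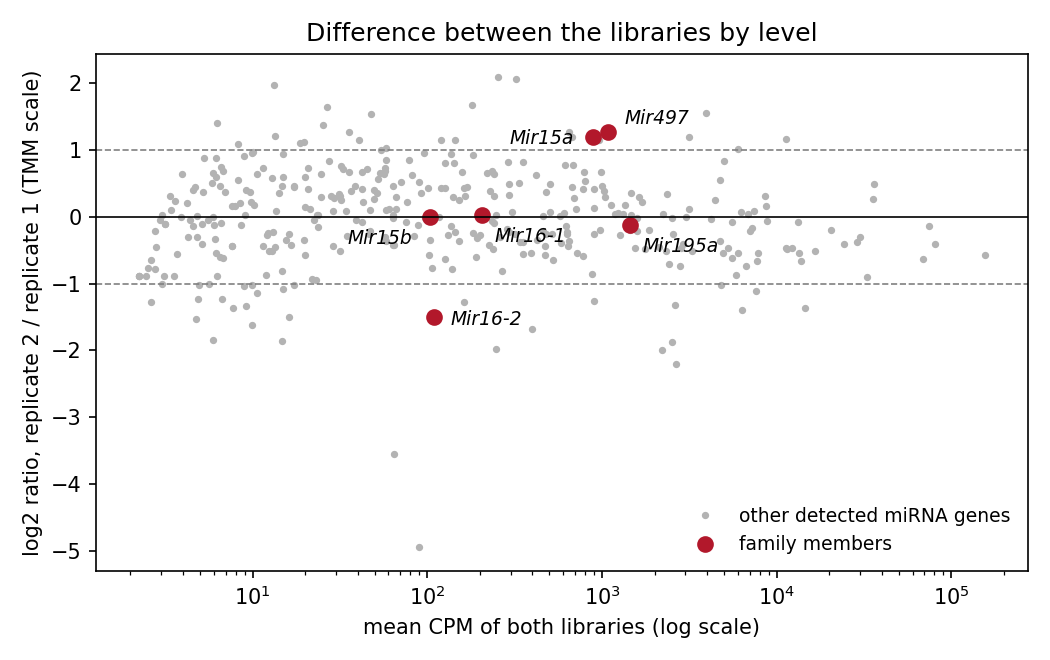
Log2 ratio of replicate 2 over replicate 1 on the TMM scale against mean CPM (log axis) for 384 detected miRNA genes, members in red, dashed lines at 2-fold. Mir497 and Mir15a lie above the upper line and Mir16-2 below the lower one, while Mir15b, Mir16-1 and Mir195a lie near 0.

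Mir497 and Mir497b occupy the same bases on opposite strands, so strand decides which gene a read enters. The Mir497 hairpin is 84 bases long, all of them inside the 125 bases of Mir497b. Both hairpins (GENCODE M21 transcripts, each 5′ to 3′ on its own strand) are printed with the mature products in capitals, to show that the annotated products differ.
Mir497: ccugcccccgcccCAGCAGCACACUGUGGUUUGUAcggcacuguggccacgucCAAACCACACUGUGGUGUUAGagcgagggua
Mir497b: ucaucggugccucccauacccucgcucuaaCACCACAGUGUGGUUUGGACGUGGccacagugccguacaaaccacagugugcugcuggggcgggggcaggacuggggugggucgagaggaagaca

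The mature miR-497b lies across from miR-497a-3p, overlapping 17 of its 21 positions, and does not touch miR-497a-5p. Its own bases 2 to 8 differ from the family seed, so Mir497b shares the name and the locus of the family but not its seed.
miR-497b: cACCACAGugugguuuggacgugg

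Nearly every read at this locus lay on the strand of Mir497. Mir497 had 2037 sense counts in replicate 1 and 9099 in replicate 2, and the same numbers were the opposite-strand counts of Mir497b. On its own strand Mir497b had 1 count in replicate 1 and 0 in replicate 2, where up to 3 counts, or 0.536 CPM, remain possible at 0. The ratio of Mir497 to Mir497b was 2037 in replicate 1, with an exact 95% interval of 365 to 80496 from counting error. In replicate 2 Mir497 was at least 3033-fold higher, against 3 counts in that library. The 5 other members had no opposite-strand count in either library.

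Counted without strand, Mir497 and Mir497b had 0 reads each in both libraries, because such reads fit both genes and are set aside as ambiguous. That choice would remove 19.5% of the family's counts in replicate 1 and 33.1% in replicate 2. Mir497, the member with the most counts in replicate 2, would then be listed at 0.

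**Figure D5:**
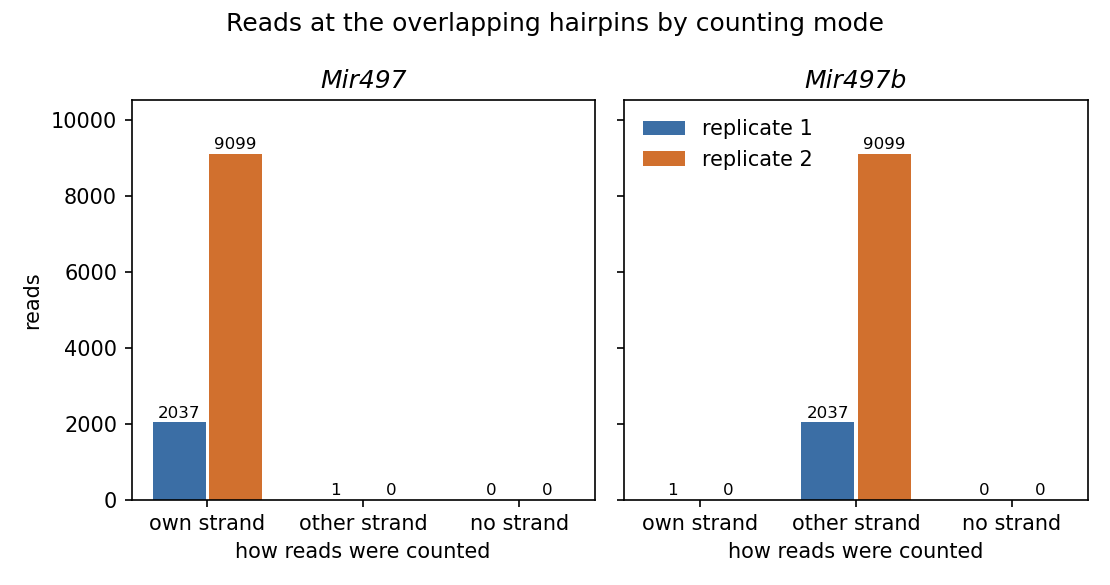
Reads at Mir497 and Mir497b counted on the gene's own strand, on the other strand, or without strand, in replicates 1 and 2. The 2037 and 9099 reads of Mir497 appear as other-strand reads of Mir497b and vanish where strand is ignored.

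Other genes with the seed or a shifted copy of it were read for comparison. Beside the 6 members, 5 genes have the family seed. Of these Mir322, on chromosome X, was detected, with 845 and 703 CPM in replicates 1 and 2 (774 ± 100.6 CPM). Mir195b had 0 and 1 counts, and Mir6342, Mir6353 and Mir6419 had none. Summed over the 11 genes with the seed, the level was 3624 and 5606 CPM, and most of it came from members. That sum also leaves out reads mapped to several places. In miR-107-3p and miR-103-3p the same bases start 1 position earlier, as printed with bases 2 to 8 in capitals.
miR-322-5p: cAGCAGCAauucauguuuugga
miR-107-3p: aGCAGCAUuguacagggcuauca
miR-103-3p: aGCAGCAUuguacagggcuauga

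Mir107, an intronic relative in a pantothenate kinase gene, had 3479 and 3040 CPM (3259 ± 310.0 CPM), above every family member in both libraries. Mir103-1 and Mir103-2, which give 1 identical miR-103-3p, had 2.54 ± 0.554 and 29.2 ± 8.51 CPM. As with the Mir16 copies, reads of that shared product map to several places and are not in these counts. The printed miR-107-3p and miR-103-3p differ only at the base before the last. Exact reads that end before it fit Mir107 and the Mir103 copies alike, so the Mir107 level leaves such reads out too. Of the 6 genes in this wider comparison (Mir322, Mir503, Mir351, Mir107, Mir103-1 and Mir103-2), 4 were called with TMM scaling, each higher in replicate 1, near the 65.1% of all detected genes called. With total counts Mir351 and Mir503 were not called (exact binomial test, adjusted p = 0.450 and 0.0829). On that scale Mir103-2 was called, 1.52-fold higher in replicate 2 (exact binomial test, adjusted p = 0.0018). Whether this group and the family differ was not tested.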

How the data were processed

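Total RNA was taken through microRNA sequencing in 2 libraries, put in 1 group from their labels. The deposited tables hold raw read counts per miRNA gene, made on mm10 with GENCODE M21 per the labels and the deposited text. Aligner and counter: not given in the sources used here. Of the stranded columns, the one with more counts was read as sense, a choice no source states. The 4 summary lines (unmapped, several places, outside features, ambiguous) stayed out of library sizes. Names and positions came from GENCODE M21, which matched 2202 of 2202 identifiers.

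CPM, shares and intervals were computed in Python 3.11.15 (scipy 1.17.1). Reads have no molecular identifiers, so intervals and floors (3 counts, 0.798 and 0.536 CPM) cover counting error only. Library differences used TMM sizes (edgeR 4.0.16, R 4.3.3), exact binomial tests and Benjamini-Hochberg adjustment at 0.05 over detected genes. The test was tried on simulated counts that held counting error only. That trial cannot show how the test behaves under the wider spread between these libraries. DESeq2 1.42.0 gave alternative size factors. The members and lists were chosen with earlier results of these data known. Named genes are the members, the detected genes with the family seed or of the wider mir-15/107 group, genes that overlap a member, and the next gene above and below the highest member of each cluster in mean CPM. Genes named beyond that rule are the undetected genes with the seed, the host and nearest genes, and Mir486 with the listed names near it. Counts per gene do not separate the 5p from the 3p product.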

Additional observations from a re-analysis of the deposited data

How the results depend on the processing

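No paired analysis was possible because there was 1 group, so no groups share replicate numbers. The family sum of 3841 CPM became 1344 per 1000000 reads of any kind and 6102 with let-7 genes left out of the denominator, by construction of those denominators. It was 2984 with unstranded counts and 3747 with TMM sizes. Without replicate 1 or replicate 2 it ranged from 2779 to 4903 CPM. By the same omission the share of the upstream hairpin ranged from 72.0 to 85.1% for Mir15a, 38.0 to 63.2% for Mir15b and 28.7 to 51.2% for Mir497, and the last was 0% with unstranded counts. The count of members called was 4, between 3 and 6 under the other scalings, count columns and detection limits, and 0 with the negative binomial test, where 1 had an unadjusted p under 0.05. Over all genes the count was 250, between 221 and 271, and 2 with that test, which takes in the spread between libraries (18 at an unadjusted p under 0.05). With total counts the log2 ratio of replicate 2 over replicate 1 reversed to 0.20 for Mir195a and 0.31 for Mir15b, and with no filter that of Mir15b was 0.01. For Mir15a, Mir497 and Mir16-2 the direction was the same in each alternative that could test them, and Mir497 could not be tested without strand. The next changes to the list were chosen after seeing the data. Leaving out Mir16-1 and Mir16-2 gave 3526 CPM, and adding Mir195b gave 3841 CPM. Depth limits Mir497b most, at 1 and 0 counts.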

Other observations

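Within the X chromosome cluster that holds Mir322, counts differed widely between the genes. Mir322 had 774 ± 100.6 CPM, Mir503 11.9 ± 3.15 CPM and Mir351 64.4 ± 3.40 CPM (mean ± SD, n = 2). The seed of miR-503-5p departs from that of the family in its last base, and miR-351-5p has an unrelated one. Each of the 3 was called higher in replicate 1 on the TMM scale by the exact binomial test, beside 65.1% of all detected genes called. Their log2 ratios of replicate 2 over replicate 1 were -0.58, -0.86 and -0.42, with adjusted p of 2.54e-62, 0.00383 and 0.000808 in that test. None was called in the negative binomial test, which takes in the spread between libraries (unadjusted p = 0.415, 0.267 and 0.563). With total counts Mir503 and Mir351 were not called (exact binomial test, adjusted p = 0.0829 and 0.450).

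By mean CPM over the 2 libraries, the genes next to the highest member of each pair were Mir185 (1455 ± 81.5) and Mir874 (1360 ± 326) around Mir195a. Around Mir15a they were Mir423 (898 ± 318) and Mir341 (878 ± 228), and around Mir16-2 they were Mir350 (116 ± 17.8) and Mir495 (107.1 ± 23.6).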
